A study of Mus musculus with 12 samples.

Results

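The Mof+/- promoter peaks outside homeobox genes were 259 peaks of the 731 in the MOF peak list of heterozygous visceral white adipose tissue. They were chosen by measured values: a peak had to be in the Mof+/- list, to lie on chromosomes 1 to 19 and to have a base within 1 kb of the start site of a protein-coding transcript, and its nearest coding gene could not carry 1 of 28 homeobox symbol prefixes such as Hox, Lhx or Dlx. Of the 712 Mof+/- peaks on chromosomes 1 to 19, 45 more lay at promoters of homeobox genes with such a prefix and 408 lay away from coding promoters. The remaining 259 peaks had 223 nearest genes, 29 of them with 2 or more of the peaks.

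The tissue came from C57BL/6 mice aged 8 weeks on standard diet that were either wild type (Mof+/+) or heterozygous for Mof (Mof+/-). Chromatin was precipitated with an antibody against MOF in 2 samples per genotype, beside 2 H3 samples and 2 input samples per genotype. Only 1 MOF peak list per genotype was used here, with 19773 peaks in Mof+/+, and neither list held replicate values, so no difference between genotypes could be tested over animals. Nuclei of the whole tissue were used, so a peak may come from any of its cell types, and fewer cells of a type cannot be told apart from less binding per cell.

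MOF (KAT8) is the acetyltransferase that places most H4K16 acetylation, a histone mark of open and transcribed chromatin. It works in the MSL and NSL complexes, and the NSL complex binds promoters of widely expressed genes. Many promoters of developmental transcription factors lie in long CpG-rich domains that are kept silent by Polycomb complexes in differentiated tissue. Homeobox genes are the best known of these, and forkhead, T-box, Pax and Sox genes encode other families of developmental regulators.

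The sequences below are the 151 bases centred on the summit of 6 of the peaks, read from the GRCm38 reference on the strand of the nearest gene, with CpG sites in capitals. The first 4 had the highest Mof+/- fold enrichment, Tbx20 had no Mof+/+ peak, and Gm10721 stands for a group of high background described next.
Sp9, chr2:73272739-73272889, strand +, intron: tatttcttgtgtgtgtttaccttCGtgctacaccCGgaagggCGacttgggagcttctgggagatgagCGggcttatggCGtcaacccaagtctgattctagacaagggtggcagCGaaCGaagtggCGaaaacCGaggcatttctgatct
Igf2bp3, chr6:49218507-49218657, strand -, upstream of the gene: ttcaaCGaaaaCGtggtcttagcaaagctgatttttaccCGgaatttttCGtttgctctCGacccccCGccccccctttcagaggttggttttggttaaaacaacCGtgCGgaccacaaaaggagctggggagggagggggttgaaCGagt
Aldh1a2, chr9:71216091-71216241, strand +, intron: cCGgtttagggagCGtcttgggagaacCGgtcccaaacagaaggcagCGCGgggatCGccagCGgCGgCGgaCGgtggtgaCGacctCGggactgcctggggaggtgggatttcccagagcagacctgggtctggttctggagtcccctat
Gm10837, chr14:122489177-122489327, strand +, upstream of the gene: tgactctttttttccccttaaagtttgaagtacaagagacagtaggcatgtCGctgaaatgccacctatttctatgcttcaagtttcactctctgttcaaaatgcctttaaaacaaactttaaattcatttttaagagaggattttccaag
Tbx20, chr9:24770181-24770331, strand -, intron: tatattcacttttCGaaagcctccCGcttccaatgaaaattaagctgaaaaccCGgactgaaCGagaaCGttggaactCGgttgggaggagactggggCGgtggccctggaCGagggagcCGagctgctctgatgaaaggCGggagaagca
Gm10721, chr9:3012280-3012430, strand +, outside genes: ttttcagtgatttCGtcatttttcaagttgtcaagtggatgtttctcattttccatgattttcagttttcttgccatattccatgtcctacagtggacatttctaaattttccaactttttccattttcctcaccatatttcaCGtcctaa
The Sp9 window held 9 CpG sites, the Igf2bp3 window 9, the Aldh1a2 window 12 and the Tbx20 window 10. By contrast, the Gm10837 window held 1 CpG site at 34.4% GC although its enrichment was among the highest. The Gm10721 window held 2 CpG sites at 33.8% GC.

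A group of 15 peaks stood apart from the rest. These lay at 9 predicted genes, with 13 of the peaks in the first 4 Mb of chromosome 9 (Gm10717, Gm10722 and neighbours), 1 at Gm10800 on chromosome 2 and 1 at Gm21738 on chromosome 14. Their background, the number of fragments that peak calling expected at the summit, was over 10 times the lowest of the list. At Gm10800, whose counts could not be recovered, this rests on the closest fit. In the 14 peaks whose counts could be recovered the background ranged from 66.4 fragments at Gm10721 to 1171 at Gm10722, against 2.26 to 5.48 in the other 244 peaks. The median of these 244 was also 2.26, so many of them shared 1 common lowest value. Fold enrichment in these 15 peaks was low, with a median of 1.63 (interquartile range 1.46 to 1.87), against 4.29 (3.71 to 4.91) in the other 244. Their start sites had a median of 2.00 CpG sites per 100 bp against 6.69 in the others. Whether these signals come from repeated sequence was not tested, and the main results are also given without them.

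**Figure D1:**
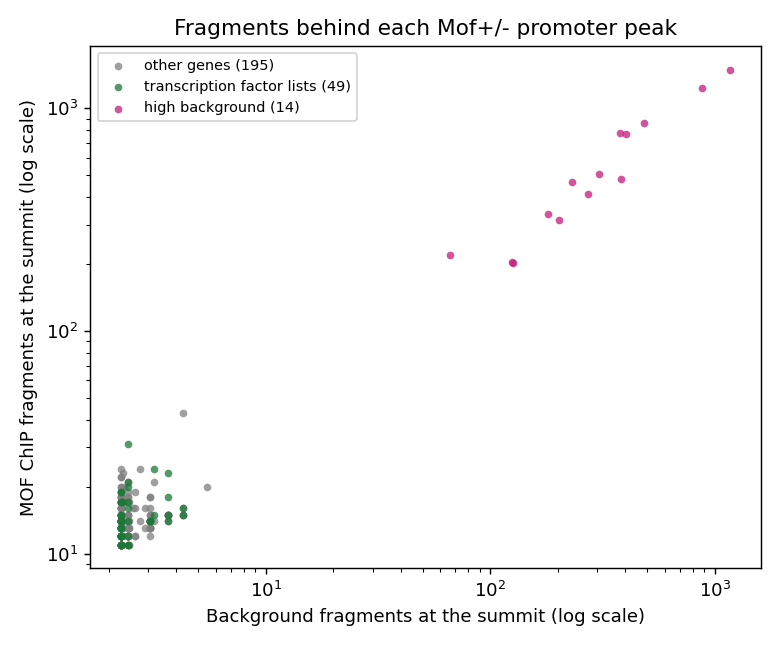
MOF ChIP fragments at the summit against background fragments, both on log scales, for 258 Mof+/- promoter peaks outside homeobox genes, 1 point per peak. The 14 peaks of high background lie far to the right of the others, whose background stays between 2.26 and 5.48 fragments.

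The strongest of these promoter peaks in the Mof+/- list were at Sp9, Igf2bp3 and Aldh1a2. Fold enrichment, the fragments at the summit over the background with 1 added to each, was 9.31 at Sp9, a zinc finger factor of forebrain interneurons. It was 8.36 at Igf2bp3, an RNA-binding protein of fetal tissue, and 7.67 at Aldh1a2, which makes retinoic acid. These peaks rested on 31 fragments at Sp9 (exact Poisson 95% interval 21.1 to 44.0), 43 at Igf2bp3 (31.1 to 57.9) and 24 at Aldh1a2 (15.4 to 35.7). All intervals here cover counting error only.

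Next in order came Gm10837 at 7.23, E030030I06Rik and Osr2 at 7.05 each, and Shisa3 at 6.66. Osr2 is an odd-skipped zinc finger factor of palate and limb, and Shisa3 is an antagonist of Wnt and FGF receptors. Hlx and Tfap2c followed at 6.44 each, and Dmbx1 and Kmt2e at 6.40 each. Hlx and Dmbx1 are homeobox genes without a listed prefix, Tfap2c encodes the factor AP-2 gamma and Kmt2e a SET domain protein. These neighbours do not differ beyond their counting intervals: Shisa3 rested on 24 fragments (15.4 to 35.7) and Kmt2e on 21 (13.0 to 32.1).

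Most of the peaks were far weaker than these. Over the 244 peaks without high background the median was 14 fragments (interquartile range 12 to 16, lowest 11), and the median width was 401.5 bp. The weakest by q-value lay at Bahcc1, Ankfy1 and Spink8, with -log10 q of 1.10, 1.33 and 1.33. At the distance limit, peaks at Bad, H2-Ab1 and Rasd1 lay 996, 994 and 970 bp from a start site, with fold enrichments of 4.60, 4.07 and 4.60. The nearest peaks beyond the limit were at Dlx6, Hoxb9 and Hoxa13, 1010, 1019 and 1030 bp away, with fold enrichments of 3.65, 5.52 and 3.96. Each of these genes also carries an excluded prefix, so its peak would be left out at any distance.

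The Mof+/+ list took no part in choosing the peaks and shows how the same promoters looked in wild type tissue. Of the 259 peaks, 238 overlapped a Mof+/+ peak by at least 1 bp (91.9%, Wilson 95% interval 87.9 to 94.6). With 50% of both peaks shared, the count was 48 (18.5%), the Mof+/+ peaks being the wider ones. Over all 712 Mof+/- peaks of chromosomes 1 to 19 this share was 84.7%. It was 44 of 45 (97.8%, 88.4 to 99.6) at homeobox promoters and 321 of 408 (78.7%, 74.4 to 82.4) away from promoters. Without the high background group the count was 226 of 244 (92.6%, 88.6 to 95.3). The interval lay above that of peaks away from promoters and overlapped that of homeobox promoters.

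At the level of genes, 238 coding genes had one of these peaks within 1 kb, and 231 of them (97.1%, 94.1 to 98.6) had a Mof+/+ promoter peak. Across all 20698 coding genes the share with a Mof+/+ promoter peak was 42%.

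The remaining 18 peaks of low background had no Mof+/+ peak. They held 11 to 16 fragments with a median of 12, and 8 of them held 11. Tbx20, a T-box factor of the heart, had 2 such peaks with fold enrichments of 4.91 and 4.29, and its nearest Mof+/+ peak was 265766 bp away. Stx19, a syntaxin, had 4.79 and Usp53, a ubiquitin peptidase family member, 4.60. Foxd4, a forkhead factor, had 4.29. For 6 of the 18 a Mof+/+ peak lay within 1 kb, the closest 52 bp away at Cdon, and for 9 the same gene had a Mof+/+ promoter peak. At Nr2f2, a nuclear receptor, the nearest was 1918509 bp away.

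These promoters carried broad peaks in wild type tissue, which were also stronger when any overlap counted. The 216 Mof+/+ coding promoter peaks that overlapped one of the 259 peaks had a median fold enrichment of 5.02 (3.76 to 6.42), against 3.76 (3.23 to 4.65) in the 9086 that overlapped no Mof+/- peak. Their median width was 1894.5 bp (1204.75 to 3186.25) against 746 bp (467 to 1214). With 50% of both peaks shared, the ratio of the medians in fold enrichment went from 1.34 to 0.985. Without those at high background peaks, 201 Mof+/+ peaks had a median fold enrichment of 5.21 (3.96 to 6.42) and a median width of 1958 bp (1285 to 3350). Among all 9367 Mof+/+ coding promoter peaks, 2.31% overlapped one of the 259. This share was 0.342% (0.173 to 0.673) in the narrowest quartile and 6.75% (5.80 to 7.83) in the widest, which held 158 of the 216.

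The difference in strength went with width. Within the widest quartile the median was 5.53 at these peaks and 4.68 at Mof+/+ peaks with no Mof+/- peak. In the narrower quartiles it was 3.43 against 3.29, 3.29 against 3.56 and 3.66 against 3.98, on 8, 23 and 27 peaks at these promoters. Without the 15 Mof+/+ peaks at high background peaks, the medians from the narrowest to the widest quartile were 3.43 against 3.29, 3.66 against 3.56, 3.84 against 3.98 and 5.71 against 4.68, so that the direction turned in the second. A broad peak also has more bases with which to overlap; how much of the difference this gives was not tested.

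The strongest Mof+/+ peaks overlapped here were at Igf2bp3, with a fold enrichment of 14.9 on 72 fragments (56.3 to 90.7), and at Trex1, a DNA exonuclease, with 12.2 on 62 (47.5 to 79.5). Brd2, a bromodomain reader of acetylated histones, had 10.2 and Sp9 10.1, each on 45 fragments (32.8 to 60.2). The Mof+/+ peak was 13812 bp wide at Sp9, 11337 bp at Igf2bp3 and 10688 bp at Trex1. In the Mof+/- list the peak was 2724 bp wide at Sp9 and 8086 bp at Igf2bp3, but 299 bp at Trex1.

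Several broad Mof+/+ peaks held more than 1 of the Mof+/- peaks. This was so for 22 of the 216, with 2 Mof+/- peaks in 20 of them and 4 in the other 2. Shox2, a homeobox gene of limb and heart, had 4 peaks of 4.60 to 4.91 inside 1 Mof+/+ peak of 9593 bp. Tgif1, a homeobox repressor of TGF-beta signalling, had 4 peaks of 3.71 to 4.60 inside 1 of 4870 bp. Gfi1, a zinc finger repressor of blood cells, had 3 peaks of 3.04 to 4.60. These peaks share their source and are not separate observations.

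Where both lists had a peak, fold enrichment was on balance lower in Mof+/-, although the Mof+/- values chose the peaks. The 2 values of a pair were mostly from different sites, as the Mof+/+ value was that at the summit of the whole overlapping peak. In the pairs of low background the Mof+/+ peak had a median width of 2130.5 bp, and the summits lay a median of 379 bp apart. What this does to the ratio was not tested. Over 226 pairs of low background the median ratio of Mof+/- to Mof+/+ was 0.858 (0.650 to 1.07), and the Mof+/- value was higher in 75 of them (33.2%, 27.4 to 39.6). The direction turned when 50% of both peaks had to be shared: the median ratio over all pairs was then 1.12, on 48 pairs, against 0.876. At homeobox promoters it was higher in 25 of 44 (56.8%, 42.2 to 70.3), with a median ratio of 1.06. Away from promoters it was higher in 157 of 319 (49.2%, 43.8 to 54.7). The interval at these promoters lay below both, and covers counting of peaks only. It takes the pairs as separate although some share 1 Mof+/+ peak: all 238 pairs rested on 213 Mof+/+ peaks. The lowest background of a list was 3.52 fragments in Mof+/+ and 2.26 in Mof+/-; its part in the ratio was not tested.

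The lowest ratio was at Trex1. It had 12.2 in Mof+/+ and 3.68 in Mof+/-, a ratio of 0.302, on 62 fragments (47.5 to 79.5) and 11 (5.49 to 19.7). Bahcc1 had 8.50 and 3.21, a ratio of 0.378. Kmt5b, an H4K20 methyltransferase, had 9.29 and 3.71, a ratio of 0.399. Hexim1, an inhibitor of the elongation factor P-TEFb, had 8.85 and 3.71, and Zfp36l1, an mRNA decay factor, had 8.63 and 3.68. Ikzf3, a lymphoid factor, had 8.63 and 3.71 at the weaker of its 2 peaks.

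The highest ratio was at Dmrt2. Dmrt2, a factor of somite development, had 2.44 in Mof+/+ and 4.91 in Mof+/-, a ratio of 2.01, on 15 fragments (8.40 to 24.7) in each list. Otp, a homeobox factor of the hypothalamus, had 3.09 and 6.13. Gjc1, a connexin, had 2.76 and 5.52, Foxi3 had 2.89 and 5.52, and Grhl2, an epithelial factor, had 3.10 and 5.52. Lower down came Mettl26 with 2.73 and 4.60, Tbx18 with 2.74 and 4.60, and 1110038F14Rik with 3.66 and 5.83. The counting intervals of fragments overlapped between the lists at each of these genes. They did not overlap at the 6 genes named with the lowest ratios. With the Mof+/- bounds multiplied by 1.56, the ratio of the lowest backgrounds, the upper bound in Mof+/- was 30.6 at Trex1, still below the Mof+/+ interval, and at the other 5 it was within the Mof+/+ interval (36.6 at Kmt5b, Hexim1 and Ikzf3, 32.6 at Bahcc1 and 30.6 at Zfp36l1). The genes at both ends were picked for their ratio, so these values are a description.

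**Figure D2:**
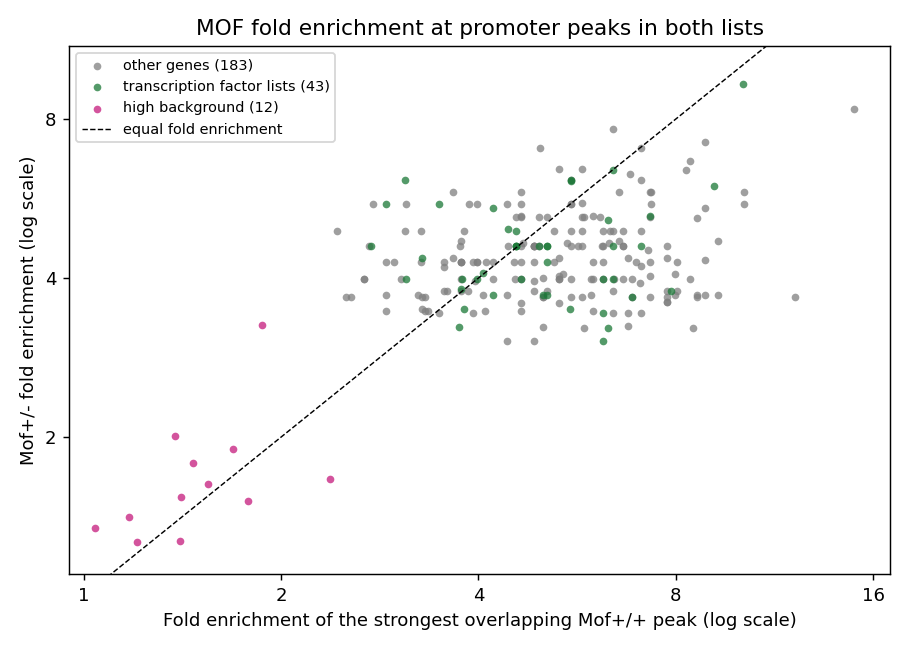
Mof+/- fold enrichment against that of the strongest overlapping Mof+/+ peak, both on log scales, for the 238 peaks with a Mof+/+ peak; the dashed line marks equal values. Green points are genes of the 12 transcription factor lists, and the 12 high background peaks lie at the lower left. Most low background points lie below the line, with the Mof+/- value higher in 75 of 226.

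Transcription factor genes formed a large group among the promoters. Of 307 coding genes on 12 lists of transcription factor families outside the homeobox prefixes, 37 (12.1%, 8.87 to 16.2) had one of the 259 peaks within 1 kb, against 1.15% of all coding genes. In the Mof+/+ list the same 307 genes had a promoter peak at 160 (52.1%, 46.5 to 57.6), against 42% of all coding genes. The lists were drawn up with earlier results of these data known, so the count is not independent evidence.

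Among the families, forkhead genes had 6 of 43, with Foxi3 at 5.52, Foxl2 at 4.37, Foxd4 at 4.29 and Foxb2 at 3.99. The T-box list held only symbols that begin with Tbx and had 4 of 14, namely Tbx15 at 5.42, Tbx2 at 5.24, Tbx20 at 4.91 and Tbx18 at 4.60. Outside that list, the T-box genes Tbr1, with 2 peaks of 5.83 and 4.71, and Eomes, at 3.96, also had peaks, and both are counted with the other genes here. Pax genes had 3 of 9, with Pax6, a regulator of eye and pancreas, at 5.52, and Pax3 and Pax5 at 3.99 each. Nuclear receptors had 5 of 43, led by Nr5a1, a regulator of steroid synthesis, at 6.13 and the clock repressor Nr1d2 at 4.60. Sox genes had 2 of 18, with Sox2 at 6.11 and Sox21 at 3.23. Over all coding genes the share with one of these peaks was 1.15%. In the Mof+/+ list a promoter peak was at 27 of 43 forkhead, 8 of 14 Tbx and 4 of 9 Pax genes. It was at 22 of 43 nuclear receptors and 6 of 18 Sox genes, against 42% of all coding genes.

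Homeobox genes were not all removed by the prefixes. A list of 55 such genes without a listed prefix had 9 with a peak, among them Dmbx1 at 6.40, Otp at 6.13 and Shox2 at 4.91. Over all coding genes this share was 1.15%. In the Mof+/+ list 25 of the 55 had a promoter peak, against 42% of all coding genes. By their RefSeq descriptions, 18 of the 259 peaks (6.95%, 4.44 to 10.7) at 9 genes were at genes described as homeobox.

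Smaller families had 1 or 2 genes each. Sp and Klf genes had 2 of 25, Sp9 at 9.31 and Sp1 at 4.60. Neural and mesodermal bHLH genes had 2 of 43, Tal1 at 5.16 and Neurod2 at 3.99. C/EBP and AP-1 genes had 2 of 29, Atf4 at 3.78 and Junb at 3.71. Gata genes had 1 of 5, Gata6 at 4.95, and Zic and Gli genes 1 of 10, Zic2 at 3.49. Hes, Hey and Id genes had 0 of 13, which is near the 1.15% of all coding genes, and single genes in lists this short say little beside that share.

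The peaks at genes of the 12 lists had a median fold enrichment of 4.29 (3.78 to 4.91) over 49 peaks, and that of the other 195 peaks was 4.29 (3.71 to 4.91). Their Mof+/+ peaks were wider, with a median of 2862 bp (1638 to 4861) against 2027 bp (1286.5 to 3524), with overlapping interquartile ranges. The other 195 peaks lay at 177 genes and include transcription factors on none of the lists, such as Osr2, Hlx, Tfap2c and Tbr1, so this sets listed genes against all others and not factors against other kinds of gene.

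Among regulators of chromatin and RNA, Polycomb subunits had 3 of 32, with Cbx2 at 5.52, Bmi1 at 4.37 and Cbx8 at 4.29. Fetal RNA regulators had 2 of 7, Igf2bp3 at 8.36 and Igf2bp1 at 5.82. The mRNA decay factors had 2 of 8, Zfp36 at 3.99 and Zfp36l1 at 3.68. Immediate early genes had 2 of 30, Ier5 at 4.91 and Junb at 3.71. In the Mof+/+ list a promoter peak was at 28 of 32 Polycomb subunits and 3 of 7 fetal RNA regulators. It was at 8 of 8 mRNA decay factors and 28 of 30 immediate early genes, against 42% of all coding genes. Subunits of the MOF complexes had 0 of 10, which at a background of 1.15% says nothing of these genes, and 9 of the 10 had a Mof+/+ promoter peak, against 42% of all coding genes.

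Of the signalling pathways, the FGF pathway had 2 of 32, Fgf9 at 4.29 and the ERK phosphatase Dusp6 at 3.68, and the Wnt pathway had 1 of 51, Lef1 at 3.23. The BMP and TGF-beta pathway had 0 of 55, Hedgehog and Notch genes 0 of 21, and semaphorins, ephrins and axon guidance genes 0 of 66. Beside the 1.15% of all coding genes, the counts of 0 and 1 are near the background.

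Among metabolic genes, the mitochondrial respiratory chain had 0 of 83 genes in the Mof+/- promoter peaks and 57 in the Mof+/+ ones. Glycolysis and the TCA cycle had 0 of 38 and 28, and glucose uptake and insulin signalling 0 of 27 and 22. Cytosolic ribosomal proteins had 1 of 81, Rpl30 at 4.60, and 76 in Mof+/+, and replication-dependent histone genes had 0 of 67 and 51. With 1.15% of all coding genes called, counts of 0 or 1 in lists of this size are near the background. The Mof+/+ counts stand beside 42% of all coding genes with a Mof+/+ promoter peak.

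Adipogenesis and lipid storage genes had 2 of 36, both early B cell factors: Ebf3 at 4.70 and Ebf2 at 3.99. Adipocyte markers had 0 of 10, with 5 in Mof+/+. Over all coding genes the shares were 1.15% in the Mof+/- promoter peaks and 42% in Mof+/+, so that the counts of 0 and 5 of 10 are near the background. Of the other cell types, B cell markers had 1 of 6, Pax5, and fibroblast and progenitor markers 1 of 6, Pdgfra, with 2 peaks of 5.53 and 5.52. T cell, macrophage, endothelial and mesothelial markers had 0 of 6 each. In the Mof+/+ list, B and T cell markers each had 5 of 6, fibroblast and progenitor markers 3 of 6, and macrophage, endothelial and mesothelial markers 1 of 6 each. The part of immune cells in these peaks was not tested.

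**Figure D3:**
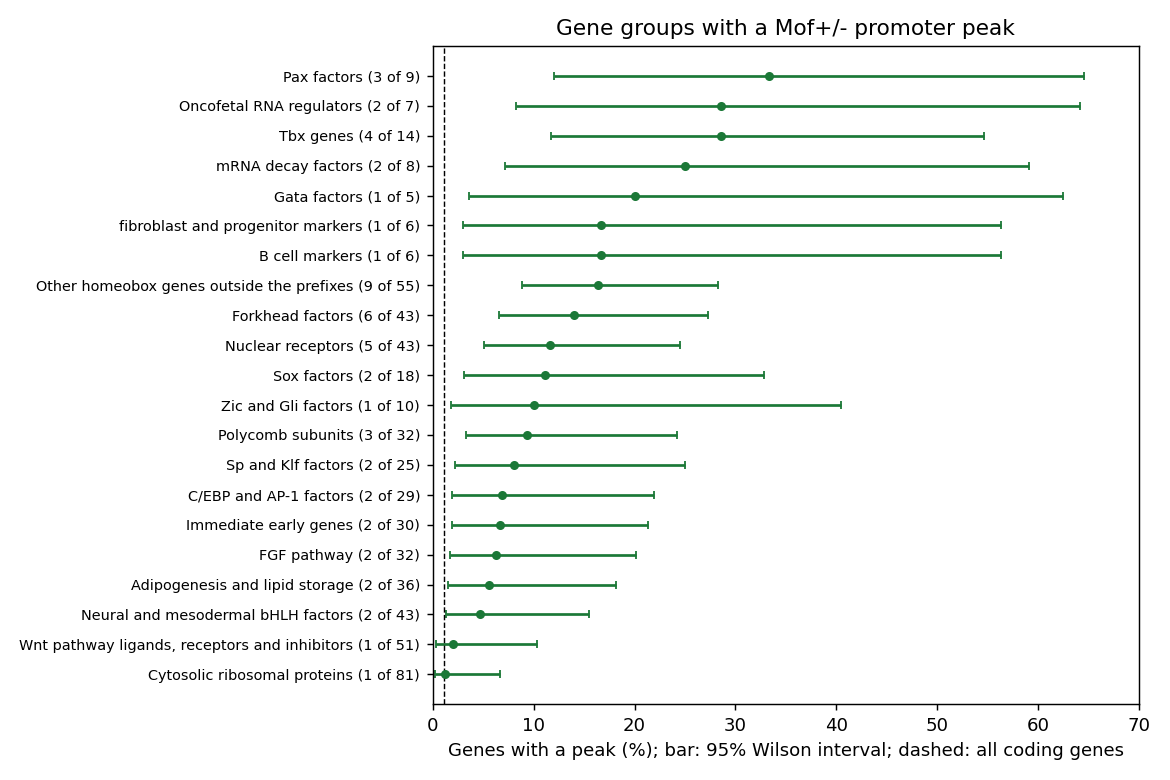
Percentage of the genes of each group with one of the 259 Mof+/- promoter peaks within 1 kb, for the 21 of 35 groups with at least 1 such gene; bars are Wilson 95% intervals and the dashed line is the 1.15% of all coding genes. Pax (3 of 9) and Tbx (4 of 14) genes lie at the upper end, and cytosolic ribosomal proteins (1 of 81) lie on the dashed line.

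The summits of these peaks lay farther from the start site than is usual for Mof+/+ promoter peaks. Of the 244 low background peaks, 102 (41.8%, 35.8 to 48.1) had a summit over 500 bp from the nearest coding start site. This share was 20.8% (20.0 to 21.6) over all 9367 Mof+/+ coding promoter peaks and 71.1% (56.6 to 82.3) at Mof+/- homeobox promoter peaks. The Mof+/+ peaks at these same promoters had 41.7% (35.3 to 48.3). A summit within 200 bp was found for 21.3% (16.6 to 26.9), against 44.9% (43.9 to 45.9) over all Mof+/+ coding promoter peaks and 32.9% (27.0 to 39.4) of the Mof+/+ peaks at these same promoters.

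In the direction of transcription, 144 of the 259 summits (55.6%, 49.5 to 61.5) lay after the start site, against 64.3% (63.3 to 65.2) of all Mof+/+ coding promoter peaks and 58.8% (52.1 to 65.2) of the Mof+/+ peaks at these same promoters, whose interval includes 55.6%. Of the 259 summits, 98 lay in introns of coding genes, 66 outside coding genes, 43 in UTRs and 40 in coding exons, 8 of these last from the high background group. Summits of both lists differed in position: 59 of 226 (26.1%, 20.8 to 32.2) lay within 100 bp of the Mof+/+ summit, with a median gap of 379 bp. At Sp9 the gap was 1 bp and at Igf2bp3 306 bp, whereas at Aldh1a2 it was 1034 bp.

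**Figure D4:**
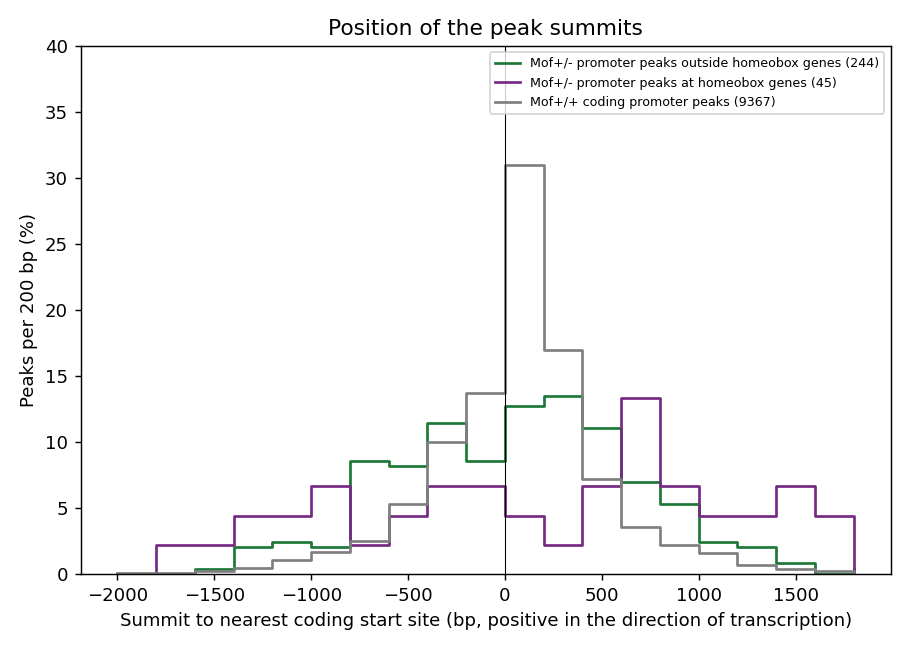
Percentage of peak summits per 200 bp against the distance to the nearest coding start site in bp, positive in the direction of transcription. The 244 low background promoter peaks outside homeobox genes spread more widely than the 9367 Mof+/+ coding promoter peaks, which gather just after the start site, and less widely than the 45 at homeobox genes.

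The start sites at these peaks were CpG-rich to the degree of Mof+/+ promoter peaks in general. Within 500 bp on either side of the start site the median was 6.39 CpG sites per 100 bp (4.77 to 8.49), or 6.69 (5.09 to 8.59) without the high background group. It was 6.89 (5.00 to 8.89) at start sites of all Mof+/+ promoter peaks, 5.39 (4.20 to 7.39) at homeobox promoters and 4.00 (1.30 to 6.99) over all coding start sites. Transcription factor peaks (6.64) and the other low background peaks (6.69) were alike in this median.

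At the summits themselves the windows were poorer in CpG. In 300 bp centred on the summit, the low background peaks had a median of 5.00 CpG sites per 100 bp (3.25 to 7.67), against 7.0 (3.67 to 10.7) at Mof+/+ coding promoter peaks and 2.33 (1.33 to 4.33) at Mof+/- peaks away from promoters. At Mof+/- homeobox promoter peaks the median was 4.67 (3.33 to 6.00). The GC box GGGCGG, searched on both strands, was in 91 of the 244 windows (37.3%, 31.5 to 43.5), against 47.9% (46.9 to 48.9) of the Mof+/+ coding promoter windows. The ETS core CCGGAAG was in 6.56% (4.08 to 10.4) against 10.6% (9.96 to 11.2), and the CCAAT box CCAAT in 22.5% (17.7 to 28.2) against 21.4% (20.6 to 22.3). The TATA box TATAAA went the other way, at 8.20% (5.37 to 12.3) against 4.72% (4.31 to 5.17). Both directions were also seen in the rest of the Mof+/- list. At homeobox promoter peaks the GC box was in 22.2% (12.5 to 36.3) and the TATA box in 11.1% (4.84 to 23.5). Away from promoters they were in 18.5% (15.0 to 22.6) and 13.8% (10.8 to 17.5). The NRF1 core GCATGCGC was in 0.410% (0.0724 to 2.28) against 2.08% (1.81 to 2.39), the YY1 core AAGATGGC in 1.64% (0.639 to 4.14) against 3.62% (3.26 to 4.02), and the E-box CACGTG in 4.51% (2.54 to 7.89) against 6.64% (6.15 to 7.16). The AP-1 site TGANTCA was in 5.33% (3.14 to 8.90) against 4.24% (3.85 to 4.67), and the CRE TGACGTCA in 0 of 244 (up to 1.55%) against 1.02% (0.840 to 1.25). These shares are of summit windows and not of the promoters of the same genes. In 232 RefSeq promoters of 160 low background genes (GRCm38.p6, 300 bases, mostly before the start site), the GC box was in 58.6% (52.2 to 64.8). In 19167 promoters of coding genes it was in 48.3% (47.6 to 49.0). The TATA box was in 6.47% (3.96 to 10.4) against 12.1% (11.7 to 12.6). These promoters were set against all coding promoters, and the summit windows against Mof+/+ peaks. The directions of the 2 comparisons therefore cannot be set against each other. In the printed windows, the ETS core was found at Sp9 and the GC box at Igf2bp3 and Tbx20, and the CCAAT box at Tbx20.

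**Figure D5:**
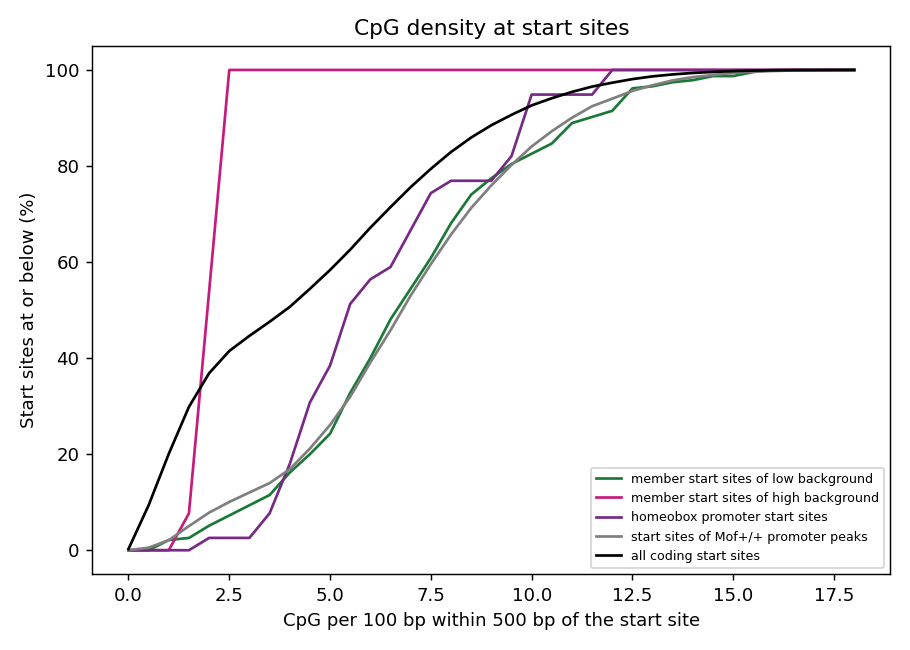
Cumulative percentage of start sites against CpG sites per 100 bp within 500 bp on either side of the start site, for 5 groups of start sites. The curve of the low background promoter peaks follows that of all Mof+/+ promoter peaks, with medians of 6.69 and 6.89, and lies to the right of all coding start sites, with a median of 4.00.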

How the data were processed

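MOF was immunoprecipitated from visceral white adipose tissue of Mof+/+ and Mof+/- mice, with input as control. According to the submitters' processing notes, the authors called peaks with MACS2 (version 2.1.1.20160309.3) on GRCm38. The deposited lists give for each peak a fold enrichment (a ratio of ChIP over background), -log10 p and -log10 q values and the position of the summit; the largest q-value in the Mof+/- list was 0.0794. Reads were not used here, so read depth is unknown, and how the 2 libraries of a genotype entered its list is not given in the sources used here. The study's methods describe a merge of peaks lying up to 1000 bp apart; in the deposited lists 148 Mof+/- and 3796 Mof+/+ peaks lay that close to the next, so these lists are not so merged.

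Start sites were those of protein-coding transcripts of GENCODE M21 (52092 start sites of 20698 genes). Whole fragments at the summit were recovered from fold enrichment and -log10 p, within 0.01 of the deposited -log10 p for 730 of 731 Mof+/- peaks and all 19773 Mof+/+ peaks; the remaining peak, at Gm10800, has no fragment values. The recovery, nearest start site and overlap steps were tested on simulated data. For the recovery these were made with the same formula that it inverts. Their backgrounds and counts were all below those of the high background group, where the recovery was not tested. The strongest overlapping Mof+/+ peak gave the Mof+/+ value of a peak.

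The peaks and the 35 gene lists were chosen with earlier results of these data known. Named genes were the strongest peaks in each list, the strongest without a Mof+/+ peak, up to 4 genes per list, genes with 3 or more peaks and those nearest the limits; genes at the ends of the ratio, and others singled out, were chosen after their values were seen. With 1 list per genotype no test was made: shares have Wilson 95% intervals, fragments exact Poisson 95% intervals and medians interquartile ranges. Alternatives varied start sites, distance, q-value, merging, the homeobox rule, overlap and the CpG window. Python 3.11.15, pandas 2.3.3, SciPy 1.17.1 and pysam 0.24.0 were used. Some genes are not reported here.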

Additional observations from a re-analysis of the deposited data

How the results depend on the processing

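No paired analysis was possible because the lists carry no replicate numbers or replicate values, and none could be left out for the same reason. Of 97 values under 15 alternatives, 85 moved by less than their interval or interquartile range, by under 1.1 times for a ratio of medians or by under 1.5 times for a count. The number of peaks fell from 259 to 124 at q of at most 0.001. The share overlapping a Mof+/+ peak, 91.9%, was 87.9% at that q, 94.8% with peaks within 1000 bp merged, 87.6% with 50% of the shorter peak shared, 18.5% with 50% of both, 86.1% with the Mof+/- summit inside the Mof+/+ peak and 95.4% within 1000 bp. With 50% of both peaks shared, 48 pairs were left, of like width by construction, and the Mof+/+ strength at these peaks over other promoters turned from 1.34 to 0.985 and the Mof+/- to Mof+/+ ratio from 0.876 to 1.12. The share of genes with a Mof+/+ promoter peak, 97.1%, was 90.7% with the summit within 1000 bp and 90.5% at q of at most 0.001. The share of transcription factor peaks, 18.9%, was 13.3% when homeobox genes were taken by RefSeq description. Leaving out the high background peaks, chosen after seeing the data, moved none of the 9 values run under it beyond these limits. Summits of 11 to 16 fragments limit single peaks.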

Other observations

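Low background promoter peaks were spread over all 19 chromosomes tested. Per 100 coding genes there were 0.483 on chromosome 8, the lowest, and 2.66 on chromosome 19, the highest. On chromosome 17, 6 of the peaks lay in the region of the major histocompatibility complex, at Brd2 (2 peaks), H2-Ab1 (2 peaks), H2-Ke6 and Ppp1r10. H2-Ab1, a class II antigen presentation gene, had Mof+/- fold enrichments of 4.07 and 3.71, and its Mof+/+ peak had 7.96. Cd74, the invariant chain of the same pathway, had 4.33 in Mof+/- and 8.85 in Mof+/+. The lymphoid factors Ikzf3 and Runx3 had 5.2 and 5.83 in Mof+/- and 8.63 and 7.30 in Mof+/+. These genes were chosen after their values were seen, and the cell type behind them was not tested.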
